A study of Caenorhabditis elegans with 36 samples.

Results

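Lysozymes and small antimicrobial peptides are the secreted effectors with which *Caenorhabditis elegans* meets the bacteria and fungi it eats and lives among. Lysozymes cut the peptidoglycan of bacterial cell walls, and the worm has a protist type (the *lys* genes) and an invertebrate type (the *ilys* genes). Saposin-like proteins (*spp*) can form pores in bacterial membranes, caenacins (*cnc*) are short peptides of the epidermis, *fip* and *fipr* genes encode fungus-induced peptides and their relatives, *abf* genes encode defensin-like antibacterial factors, and *thn* genes encode thaumatin-like proteins. Many of the intestinal genes are controlled by the p38 kinase PMK-1, the insulin-regulated factor DAF-16 and the intestinal factor ELT-2, and *cnc-2* in the epidermis by the ligand DBL-1. All genes with a name of 1 of these 8 prefixes and a number were taken, without regard to their values, which gave 99 genes among 38790 loci with 1 name and 41875 loci in all.

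Their RNA was measured in day 1 adults of WT animals (Bristol N2) and of 2 mutants, *ppp-1(wrm10)* as well as *ppp-1(wrm15)*, which carry different point mutations in the gamma subunit of eIF2B, the exchange factor that recharges the translation initiation factor eIF2. Both alleles came from a mutagenesis screen for long life and were outcrossed to N2. All animals were raised on OP50 bacteria with no other treatment, and all were lysed in cycloheximide. From each genotype, total lysate RNA, RNA of the monosome peak and RNA of the polysomes were sequenced, with 4 libraries for each of the 9 groups. Each group has 1 value per gene, as FPKM, which is a fragment count divided by transcript length and library size, pooled over its 4 libraries. No spread between libraries can be given and no test was run, so the differences below are descriptions of the pooled values, and a change of 2-fold or more is a mark of size only. The depth is unknown. Changes are log2 ratios after 0.1 FPKM was added to each value, and FPKM values stand in the order WT, then *ppp-1(wrm10)*, then *ppp-1(wrm15)*, unless said otherwise. In whole animals, fewer cells of a type and less RNA per cell cannot be told apart.

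Of the 99 genes, 57 had a mean of at least 1 FPKM over the 9 groups: 8 of 10 *lys*, 3 of 6 *ilys*, 14 of 22 *spp*, 4 of 11 *cnc*, 3 of 7 *fip*, 20 of 29 *fipr*, 3 of 6 *abf* and 2 of 8 *thn* genes. The other 42 lay below, and 11 of these were listed at 0 in all groups, among them *lys-9*, *ilys-6*, *fip-1* and *thn-4*. Under the limit were also several genes known for their role in defence. *ilys-3*, an invertebrate lysozyme that digests bacteria, had 0.439, 0.530 and 0.603 FPKM in total RNA, 0.432, 0.385 and 0.882 FPKM in monosome RNA and 0.500, 1.58 and 1.23 FPKM in polysome RNA. The caenacin *cnc-2* had 0.677, 0.766 and 0.497 FPKM in total, 0.909, 1.23 and 0.935 in monosome and 1.11, 1.07 and 0.974 in polysome RNA. The defensin-like *abf-2* had 0.563, 0.514 and 0.774 FPKM in total, 0.569, 0.379 and 0.409 in monosome and 0.502, 0.594 and 0.500 in polysome RNA. The saposin-like *spp-12* stayed under 1 FPKM in every group (0.206, 0.415 and 0.263 FPKM in total, 0.166, 0.0530 and 0.128 in monosome and 0.431, 0.465 and 0.290 in polysome RNA). The saposin-like *spp-1* shares its locus in the table with *umps-1*, so it is not among the 99, and the joined locus had 125, 134 and 153 FPKM in total, 111, 113 and 139 in monosome and 173, 169 and 201 in polysome RNA.

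The genes are grouped in the genome. In the annotation (WBcel235), 97 of these loci, with that of *spp-1*, were found, 35 of them on chromosome V, 22 on IV, 17 on X, 11 on I, 10 on III and 2 on II. Of these, 64 lay in 23 clusters of neighbours within 20000 bases. The *cnc* cluster of 6 genes spans V, 1442342 to 1450183, *fipr-4* to *fipr-9* span V, 10220981 to 10239961, *spp-2* to *spp-6* span X, 7314969 to 7320354, and *fip-5*, *fipr-21* and *cnc-8* lie together on X, 10302741 to 10306951. Another gene overlaps 24 of the loci, among them *lys-8*, *ilys-4*, *fip-2*, *fipr-1*, *fipr-2*, *fipr-3*, *fipr-10*, *fipr-11* and the *abf* genes named below. Whether the counting used strand is not given in the sources used here, so their values may hold reads of the other gene.

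A few lysozymes and saposin-like genes made up most of the RNA of these families. *ilys-5*, an invertebrate lysozyme with 4 exons (chromosome X, 6533490 to 6536840), was the most abundant, with 1235, 1164 and 1129.9 FPKM in total RNA, 822, 659.9 and 717 in monosome RNA and 2364, 1996 and 2229 in polysome RNA. In total RNA of WT animals it ranked 155 of all loci with 1 name. It was followed by *spp-5* (chromosome X, 7319937 to 7320354), whose product kills bacteria *in vitro*, with 632, 604 and 632 FPKM in total, 687, 576 and 568 in monosome and 1317, 1239.7 and 1277 in polysome RNA. The protist-type lysozyme *lys-4* (chromosome IV, 11621429 to 11623174) had 619, 595 and 570.0 FPKM in total, 713, 660.1 and 594 in monosome and 1038, 931 and 963 in polysome RNA. Together with *spp-14* and *spp-17*, these were the 5 genes with the highest mean over the 9 groups. In each group they held between 60.3% and 66.6% of the summed FPKM of the 99 genes. The plot of levels shows these genes. Of them, *spp-17* lay below *lys-1* in monosome RNA and below *spp-3* in polysome RNA of every genotype.

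**Figure D1:**
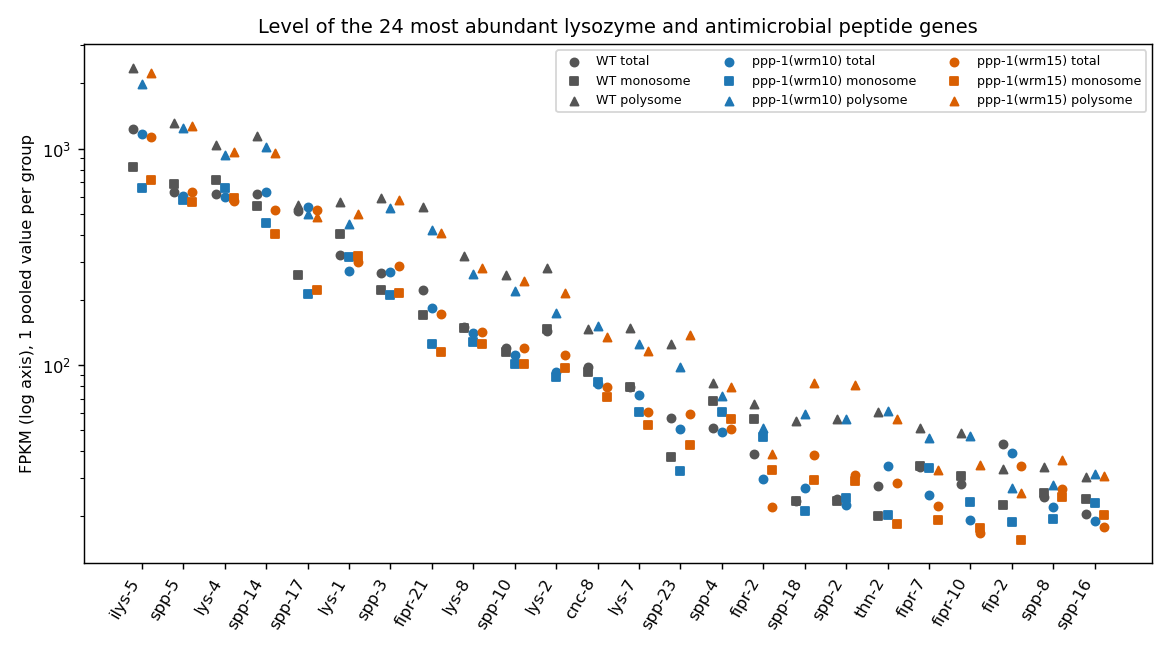
FPKM (log axis) of the 24 members with the highest mean over the 9 groups, with 1 pooled value per group; grey, blue and orange mark WT animals, the *wrm10* and the *wrm15* allele, and circles, squares and triangles mark total, monosome and polysome RNA. Values run from 2364 FPKM for *ilys-5* in WT polysomes down to 15.6 FPKM for *fip-2* in *ppp-1(wrm15)* monosomes, the triangles lie above the circles for most genes, and the 3 colours of a fraction lie close together.

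The remaining abundant genes of the *spp* family encode short saposin-like proteins, except *spp-10*, which is longer and resembles prosaposin. *spp-14* (chromosome X, 7725979 to 7726383) had 618, 627 and 519 FPKM in total, 544, 451 and 405 in monosome and 1138, 1018 and 951 in polysome RNA. *spp-17* (chromosome I, 1016405 to 1017176) had 514, 537 and 521 FPKM in total, 260.5, 212 and 222 in monosome and 549.6, 500.3 and 481 in polysome RNA. For *spp-17* the total and polysome levels overlapped between the genotypes, whereas the monosome level lay below both. *spp-3* had 265, 268 and 287 FPKM in total, 223, 211 and 216 in monosome and 588, 534 and 578 in polysome RNA. *spp-10* (chromosome IV, 8477180 to 8480656) had 120.3, 112 and 119.6 FPKM in total, 114, 101 and 102 in monosome and 259.7, 220.2 and 243 in polysome RNA.

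Across the genotypes, the summed RNA of the families was slightly lower in both mutants. All 99 genes together had 5614, 5298 and 5169 FPKM in total RNA, so that the sum was 94.4% of WT for *ppp-1(wrm10)* and for *ppp-1(wrm15)* it was 92.1%. In monosome RNA the sums were 84.5% and 81.5% of WT, and in polysome RNA 87.5% and 90.7%. These sums rest on the abundant genes, and the 12 members with a mean of at least 100 FPKM had median changes of -0.09 and -0.11 in total RNA, -0.26 and -0.27 in monosome RNA, and -0.20 and -0.15 in polysome RNA. Over all 1168 loci at that level the medians were -0.07 and -0.01 in total, -0.22 and -0.19 in monosome, and -0.15 and -0.08 in polysome RNA, so that loci of like abundance were below WT too. Over the 57 genes the medians of the change in total RNA were -0.09 for the *wrm10* allele and -0.18 for the *wrm15* allele (all loci, -0.06 and -0.03), -0.15 and -0.28 in monosome RNA (all loci, -0.04 and -0.03), and -0.10 and -0.11 in polysome RNA (all loci, -0.05 and -0.01). The summed FPKM of 8 intestinal marker genes moved the same way: it was 89.9% and 97.1% of WT in total RNA, 69.9% and 77.1% in monosome RNA and 78.2% and 88.4% in polysome RNA. In total RNA of WT animals, *asp-1* gave 2275 of the 3621 FPKM of that sum. The median changes of the 8 were -0.11 and -0.03 in total, -0.31 and -0.28 in monosome, and -0.23 and -0.08 in polysome RNA. Marker genes of several other tissues, but not of all, were lower on the ribosomes as well. Summed over 5 epidermal markers, the level was 66.9% and 76.0% of WT in monosome RNA and 76.2% and 86.3% in polysome RNA. That sum was mostly *col-19*, and 3 of the 5 were above WT in each ribosome fraction of both mutants. The median changes of the 5 were 0.39 and 0.34 in monosome RNA and 0.29 and 0.34 in polysome RNA. For 4 body wall muscle markers the summed level was 77.2% and 73.2% in monosome and 83.3% and 80.3% in polysome RNA. For 3 coelomocyte markers it was 87.2% and 80.7% in monosome RNA. For 5 neuronal markers it was 89.5% and 93.1% in monosome RNA, but 101.2% and 100.5% in polysome RNA. For 5 oocyte markers it was 96.7% and 133.2% in monosome RNA and 96.1% and 127.5% in polysome RNA. The sum of 6 sperm markers, described below for total RNA, was above WT in both ribosome fractions of both mutants, but it was mostly *ssp-16*. Without *ssp-16*, the sum of the other 5 was 138.7% and 128.7% of WT in monosome RNA, but 104.9% and 100.1% in polysome RNA. The part of the intestine's share of the RNA in these sums was not tested.

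The abundant lysozymes were below WT in every fraction of both mutants. This held for all 5 *lys* genes with a mean of at least 50 FPKM, which are *lys-1*, *lys-2*, *lys-4*, *lys-7* and *lys-8*, and for *ilys-5*. *lys-2* (chromosome V, 10280307 to 10281474), an intestinal lysozyme gene, was the lowest against WT among them in *ppp-1(wrm10)*: it had 144, 93.3 and 112 FPKM in total RNA, 147, 88.2 and 97.2 in monosome RNA and 280.4, 174 and 215 in polysome RNA. Its changes were -0.63, -0.74 and -0.69 for the *wrm10* allele in total, monosome and polysome RNA, with -0.37, -0.60 and -0.39 for *wrm15*. Both mutants were thus below WT in each fraction, and *ppp-1(wrm10)* was below *ppp-1(wrm15)*.

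*lys-7* (chromosome V, 3481432 to 3482600), a target of the insulin pathway's DAF-16 and a gene for resistance to several pathogens, had the opposite order of the alleles. Its level was 79.6, 72.6 and 60.96 FPKM in total, 79.2, 60.4 and 52.8 in monosome and 149, 125 and 116 in polysome RNA. In total RNA the change was -0.13 for the *wrm10* allele and -0.38 for the *wrm15* allele. *lys-1* (chromosome V, 10277904 to 10279056), the neighbour of *lys-2*, had 322, 271 and 299 FPKM in total, 404, 317 and 319 in monosome and 566, 450.3 and 500.1 in polysome RNA. *lys-8* (chromosome II, 5586178 to 5587651), an intestinal lysozyme gene, had 150.5, 141 and 142 FPKM in total, 149, 128 and 125 in monosome and 317, 264 and 282 in polysome RNA. The lowest of their 12 changes was -0.35, that of *lys-1* in monosomes of *ppp-1(wrm10)*. None of these 6 abundant lysozyme genes changed by 2-fold. Of the 57 genes, 27 were below WT in all 3 fractions with the *wrm10* allele and 32 with the *wrm15* allele, against 37.6% and 33% of all loci tested. These 27 and 32 are 47.4% and 56.1% of the 57. The fractions were made from the same cultures' lysates, as far as the protocol says, and are not independent of each other.

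In total RNA the abundant saposin-like genes stayed near their WT level, whereas on the ribosomes most were below it. Over the 7 *spp* genes with a mean of at least 50 FPKM, the change in total RNA lay between -0.16 and 0.06 with the *wrm10* allele, and with *wrm15* between -0.25 and 0.11. With the *wrm10* allele all 7 were below WT in monosome RNA (median -0.22) and in polysome RNA (median -0.16, lowest -0.36). With *wrm15*, 6 of the 7 were below WT in each, with medians of -0.23 in monosome RNA (lowest -0.43) and -0.07 in polysome RNA (lowest -0.26). Over all loci of at least 100 FPKM the medians were -0.22 and -0.19 in monosome RNA and -0.15 and -0.08 in polysome RNA. Over all loci of 20 to 100 FPKM they were -0.08 and -0.02 in monosome RNA and -0.08 and -0.01 in polysome RNA. Loci of like abundance were thus below WT on the ribosomes too. At a lower level, *spp-2* and *spp-18*, saposin-like genes on chromosomes X and IV, were above WT in all 3 fractions of *ppp-1(wrm15)* but not of *ppp-1(wrm10)*: *spp-18* had 23.6, 27.1 and 38.6 FPKM in total, 23.6, 21.2 and 29.6 in monosome and 55.4, 59.5 and 82.5 in polysome RNA. *spp-2* had 24.04, 22.6 and 31.2 FPKM in total, 23.6, 24.3 and 29.04 in monosome and 56.3, 56.4 and 81.2 in polysome RNA. Both were chosen after their values were seen, and both stayed within 2-fold of WT.

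In total RNA, 9 of the 57 genes (15.8%) were higher by 2-fold or more in *ppp-1(wrm10)*, against 5.71% of 12488 loci tested, and 0 were lower, against 0.737%. In *ppp-1(wrm15)*, 3 genes (5.26%) were higher, against 4.95%, and 3 were lower, against 0.969%. In monosome RNA, 5 genes were higher in *ppp-1(wrm10)* (background 6.75%) and 0 lower (0.705%), and in *ppp-1(wrm15)* 4 were higher (6.07%) and 4 lower (1.07%). In polysome RNA, 9 genes were higher in *ppp-1(wrm10)* (4.7%) and 0 lower (0.969%), and 6 were higher in *ppp-1(wrm15)* (4.33%) and 0 lower (1.08%). All of the higher genes had a mean between 1 and 5 FPKM, as had 18 of the 57. None of the 39 genes with a mean of at least 5 FPKM was higher by 2-fold in any of these 6 comparisons. Of all loci at that level, 4.32% to 6.77% were higher, so few of 39 would be met in a comparison. Among the higher genes, *spp-13*, *fipr-16*, *fipr-19*, *fipr-20* and *fipr-28* had a mean under 1 FPKM in the 3 WT groups and so passed the limit only through the mutants. Without these, 4 of 52 genes were higher in total RNA with the *wrm10* allele, and 2 of 52 with *wrm15*. Of all loci with a WT mean of at least 1 FPKM, 4.95% and 4.31% were higher there. In monosome RNA 3 and 2 of the 52 were higher (5.98% and 5.54% of such loci), and in polysome RNA 4 and 2 (4.1% and 3.81%). The plot of changes by prefix shows the cluster of *fipr* genes above the band of all loci.

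**Figure D2:**
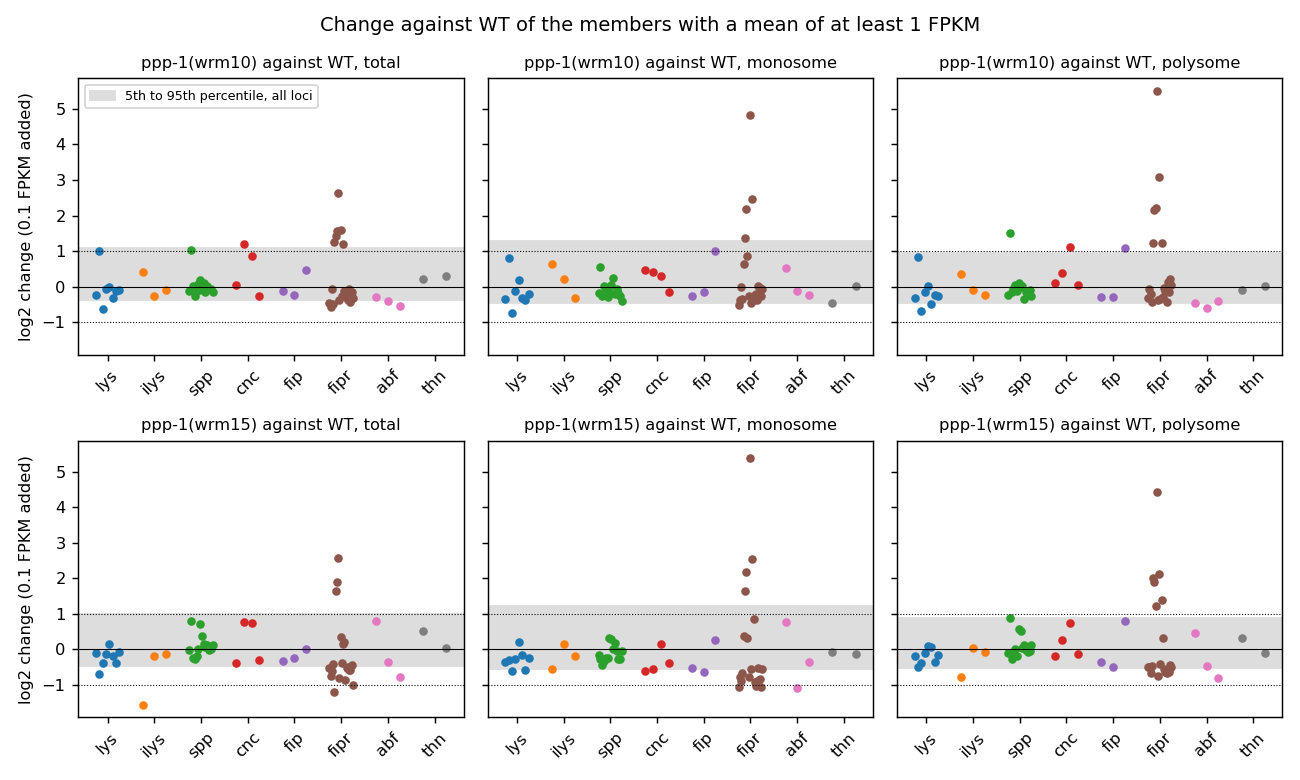
Log2 change against WT (0.1 FPKM added) of the 57 members with a mean of at least 1 FPKM, 1 point per gene, by prefix, for each mutant (rows) and fraction (columns); the grey band holds the 5th to the 95th percentile of all 12488 loci, and dotted lines mark 2-fold. Most points lie near 0, and the points far above the band are *fipr* genes, of which the highest, *fipr-20* in monosomes and *fipr-19* in polysomes, stand against a WT value listed at 0 and give no fold.

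The *fipr* genes fell into 2 sets by level, of which the higher lay mostly below WT in the mutants and the lower mostly above. The 13 genes with a mean of at least 5 FPKM (*fipr-1* to *fipr-11*, *fipr-13* and *fipr-21*, all on chromosomes V and X, with at most 112 codons each) were all below WT in all 3 fractions of *ppp-1(wrm15)*. Their median level was 66.5% of WT in total RNA, 56.4% in monosome RNA and 67.6% in polysome RNA. In *ppp-1(wrm10)* the median was 79.4%, 83.4% and 89.4%, with 13, 12 and 10 of the 13 below WT. For the 20 *fipr* genes over 1 FPKM together, the median change in total RNA was -0.19 with the *wrm10* allele, and -0.51 with *wrm15*. The split by level was made after the values were seen. Of the 7 genes of the lower set, 4 (*fipr-16*, *fipr-19*, *fipr-20* and *fipr-28*) had a WT mean under 1 FPKM and entered only through the mutants, so that their direction follows in part from the limit.

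*fipr-21* (chromosome X, 10304529 to 10304867) was by far the highest of them and had 223, 184 and 172 FPKM in total, 171, 125 and 116 in monosome and 538, 419.8 and 407 in polysome RNA. *fipr-2* (chromosome V, 12365348 to 12365869) had 38.8, 29.7 and 22.1 FPKM in total, 56.1, 46.6 and 32.9 in monosome and 65.8, 51.1 and 38.99 in polysome RNA. *fipr-7* (chromosome V, 10229829 to 10230163) had 33.9, 25.01 and 22.5 FPKM in total, 34.3, 33.4 and 19.3 in monosome and 51.3, 45.9 and 32.8 in polysome RNA. In each of these series the value of *ppp-1(wrm15)* was the lowest, and the WT value was the highest in all 3 fractions of each gene. Past 2-fold lower in *ppp-1(wrm15)* were *fipr-9* in total RNA (14.1, 11.3 and 6.95 FPKM) and *fipr-1*, *fipr-4* and *fipr-8* in monosome RNA. *fipr-1*, next to *fipr-2* on the chromosome, had 19.9, 14.6 and 13.7 FPKM in total, 29.1, 20.5 and 13.98 in monosome and 32.3, 26.1 and 22.8 in polysome RNA. *fipr-4* had 14.9, 11.8 and 10.3 FPKM in total, 11.15, 9.74 and 5.44 in monosome and 18.4, 16.8 and 11.8 in polysome RNA. In the other fractions each of the 4 genes stayed within 2-fold of WT. *fipr-8* had 13.5, 12.3 and 9.88 FPKM in total, 15.5, 12.95 and 7.38 in monosome and 22.4, 25.9 and 16.3 in polysome RNA, and *fipr-9* had 13.9, 13.3 and 9.47 FPKM in monosome and 19.5, 20.1 and 13.7 in polysome RNA. The changes past 2-fold lay just at that mark, from -1.06 to -1.01.

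The summed FPKM of 5 pharynx marker genes was also lower in *ppp-1(wrm15)*: 87.9, 83.1 and 66.3 FPKM in total RNA, or 94.6% and 75.5% of WT. In monosome RNA it was 81.6% and 69.5% of WT, and in polysome RNA 87.3% and 70.1%. None of these markers was at 0 in all groups. Their part in the level of the *fipr* genes was not tested.

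Of the 7 *fipr* genes with a mean of 1 to 5 FPKM, 6 were above WT in each fraction of *ppp-1(wrm10)*. With the *wrm15* allele 6 were above WT in total RNA and 7 in each ribosome fraction. As 4 of the 7 passed the limit only through the mutants, these counts say little about the set. *fipr-17*, *fipr-18*, *fipr-20* and *fipr-28* were higher by 2-fold or more in all 3 fractions of *ppp-1(wrm10)*, which is 7.02% of the 57 genes against 3.5% of all loci. *fipr-17* and *fipr-18* were so in *ppp-1(wrm15)* too, against 3.16%. Among the 52 genes with a WT mean of at least 1 FPKM, only *fipr-17* and *fipr-18* were so in either mutant, which is 3.85% of them against 3.15% and 2.91% of all loci with such a WT mean. No member was lower by 2-fold in all 3 fractions of either mutant (background 0.128% and 0.16%). *fipr-16* to *fipr-20* are single-exon genes on chromosome III with exons of 129 to 150 bases, and *fipr-18*, *fipr-19* and *fipr-20* lie together at III, 7458815 to 7462395. For transcripts that short and with close relatives in the genome, FPKM depends strongly on how fragments were assigned, which is not given in the sources used here.

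*fipr-17* (chromosome III, 11007459 to 11007602) had 1.78, 4.95 and 5.72 FPKM in total, 2.40, 6.39 and 7.74 in monosome and 1.65, 7.66 and 6.36 in polysome RNA. Its changes ranged from 1.37 to 2.15, and each mutant value lay above each WT value. *fipr-18* had 0.905, 2.87 and 3.64 FPKM in total, 0.944, 4.67 and 4.62 in monosome and 1.21, 5.96 and 2.96 in polysome RNA. *fipr-18*, too, had no overlap between the 3 WT and the 6 mutant values. *fipr-19* had 0.235, 1.98 and 1.90 FPKM in total, 1.55, 2.87 and 1.95 in monosome and 0, 4.44 and 2.05 in polysome RNA, and its polysome value in WT is listed at 0, so no fold is given there. *fipr-20* had 1.16, 3.67 and 1.51 FPKM in total, 0, 2.74 and 4.07 in monosome and 0.981, 9.01 and 4.63 in polysome RNA, with monosomes of WT listed at 0. For both genes the counts at 2-fold in those fractions rest on the 0.1 FPKM added. *fipr-28* (chromosome IV, 16627976 to 16628444), a gene with 2 exons on chromosome IV, had 0.359, 0.951 and 0.412 FPKM in total, 0.0928, 0.969 and 1.02 in monosome and 0.874, 2.16 and 2.45 in polysome RNA. *fipr-16* went opposite ways in total RNA: it had 1.09, 2.76 and 0.424 FPKM there, 1.21, 1.95 and 1.60 in monosome and 0.535, 1.39 and 2.44 in polysome RNA, so the alleles shared a direction only on ribosomes. *fipr-29*, the remaining gene of the 7, had 1.70, 1.54 and 1.98 FPKM in total, 0.591, 0.431 and 1.14 in monosome and 1.10, 0.870 and 1.39 in polysome RNA and stayed within 2-fold of WT. The plot of the *fipr* genes shows both sets.

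**Figure D3:**
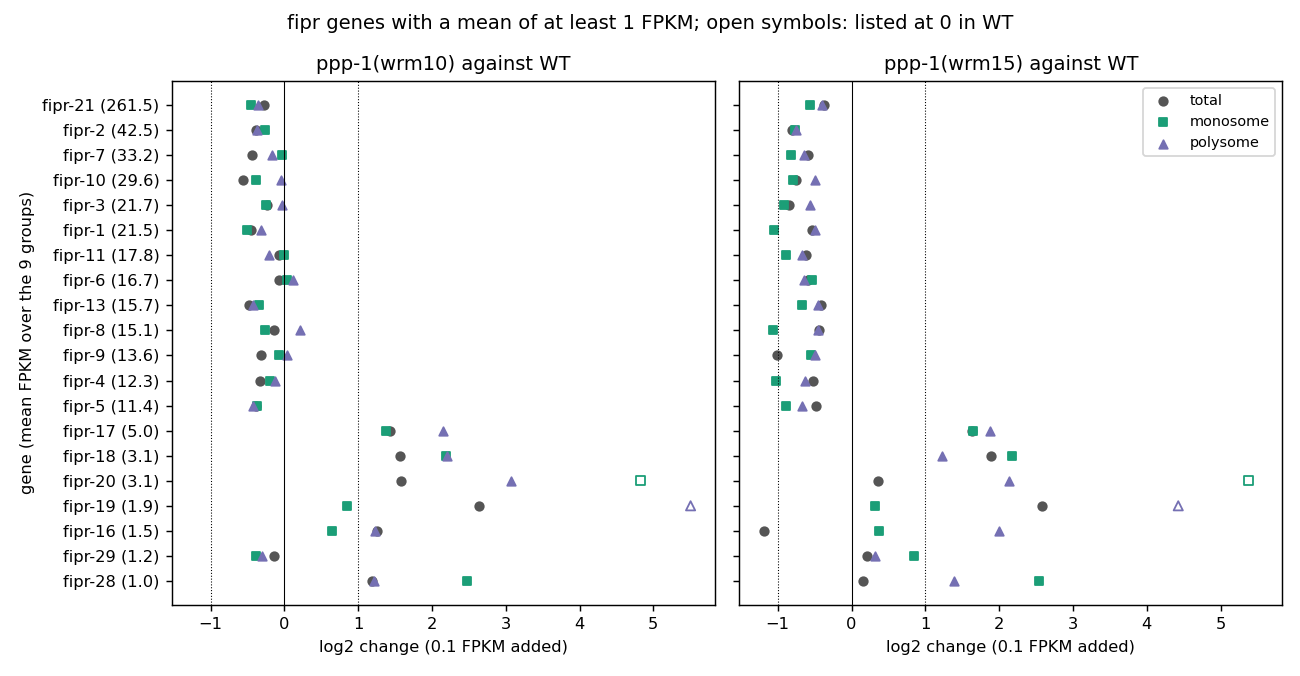
Log2 change against WT (0.1 FPKM added) of the 20 *fipr* genes with a mean of at least 1 FPKM, ordered by mean FPKM (in brackets), for *ppp-1(wrm10)* on the left, *ppp-1(wrm15)* on the right; circles, squares and triangles mark total, monosome and polysome RNA, open symbols mark a WT value listed at 0, and dotted lines mark 2-fold. The 13 upper genes lie left of 0 in every fraction of *ppp-1(wrm15)*, and *fipr-17* to *fipr-20* lie right of 0 in both mutants.

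Summed over 6 sperm marker genes, the FPKM in total RNA was 89.6, 393 and 409, which is 439% and 456% of WT. Most of this came from *ssp-16*, a sperm-specific protein gene, with 52.3, 348 and 369 FPKM, while the log2 changes of the other 5 markers ranged from 0.12 to 0.89 in total RNA of *ppp-1(wrm10)*. In *ppp-1(wrm15)*, *fer-1* (-0.30) and *spe-11* (-0.07) were below WT there and the other 4 of the 6 markers above. Without *ssp-16*, the summed FPKM of the 5 markers in total RNA was 37.32, 45.02 and 39.84. None of the 6 was at 0 in all groups. The part of sperm in the higher level of the low *fipr* genes was not tested.

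Outside the *fipr* family, 7 of the 11 genes with a mean of 1 to 5 FPKM passed 2-fold in at least 1 mutant comparison. In a single comparison, 3.94% to 6.71% of all loci at that level were higher and 1.29% to 2.06% lower. The share of such loci that passed in at least 1 comparison was not computed, so the count of 7 has no background. *spp-13*, which is 1 of the 7, passed the limit only through the mutants. The single-exon lysozyme gene *lys-10* (chromosome IV, 8332826 to 8333518) and the invertebrate lysozyme gene *ilys-2* (chromosome IV, 2467678 to 2468879) had opposite directions in the alleles. *lys-10* had 0.853, 1.82 and 0.488 FPKM in total, 1.32, 2.37 and 1.06 in monosome and 2.19, 4.01 and 1.52 in polysome RNA. *ilys-2*, which lies beside *ilys-3*, had 2.01, 2.73 and 0.614 FPKM in total, 0.900, 1.46 and 0.581 in monosome and 3.15, 4.04 and 1.78 in polysome RNA. In both genes *ppp-1(wrm10)* was the highest and *ppp-1(wrm15)* the lowest in all 3 fractions. These were the only members among the 57 that were lower by 2-fold or more in *ppp-1(wrm15)* than in *ppp-1(wrm10)* in all 3 fractions, which 0.0881% of all loci were, and 0 members were higher (background 0.0801%). Without regard to size, 29 of the 57 genes were lower in *ppp-1(wrm15)* than in *ppp-1(wrm10)* in all 3 fractions, against 22.9% of all loci, and 13 were higher, against 30.4%. Of the 29, 13 were *fipr* genes.

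*spp-13* (chromosome X, 8417419 to 8418524), a saposin-like gene, had 0.478, 1.08 and 0.912 FPKM in total, 0.707, 1.09 and 0.563 in monosome and 1.08, 3.26 and 2.06 in polysome RNA, and was past 2-fold in total and polysome RNA of *ppp-1(wrm10)*. Of the caenacins, *cnc-8* was the most abundant, with 98.03, 81.8 and 79.2 FPKM in total, 92.7, 83.6 and 71.5 in monosome and 147, 151 and 135 in polysome RNA. *cnc-10* had 9.20, 9.45 and 7.002 FPKM in total, 8.63, 11.9 and 5.64 in monosome and 18.7, 19.9 and 16.4 in polysome RNA. Both were within 2-fold of WT throughout. The neighbours *cnc-3* and *cnc-4*, epidermal caenacins of the cluster on chromosome V, were higher in the mutants in total RNA. *cnc-4* had 1.93, 3.59 and 3.31 FPKM in total, 2.43, 2.99 and 2.70 in monosome and 3.74, 8.19 and 6.36 in polysome RNA, and *cnc-3* had 0.862, 2.12 and 1.53 FPKM in total, 1.46, 1.99 and 0.958 in monosome and 2.81, 3.67 and 3.38 in polysome RNA. *cnc-4* was above WT in each fraction of both mutants, whereas *cnc-3* was below WT in monosomes of *ppp-1(wrm15)*. Of the 5 epidermal markers measured, the cuticle genes *dpy-7*, *rol-6* and *bli-1* were also above WT, by 0.47 to 0.90 in total RNA of both mutants, whereas *col-19* (-0.13 with *wrm10*, -0.13 with *wrm15*) and *elt-3* (-0.07 and -0.12) were not. The median change of the 5 was 0.61 and 0.47, and their summed level, led by *col-19*, was 92.2% and 92.1% of WT. The part of the epidermis in the level of the caenacins and of the epidermal *nlp* genes named below was not tested.

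Of the fungus-induced genes, *fip-2* had 43.00, 39.5 and 34.2 FPKM in total, 22.6, 18.9 and 15.6 in monosome and 33.04, 26.99 and 25.8 in polysome RNA, and *fip-5* had 15.7, 13.4 and 13.3 FPKM in total, 16.03, 14.3 and 10.2 in monosome and 38.5, 31.6 and 27.01 in polysome RNA. Both were below WT in every fraction of both mutants. *fip-6* (chromosome I, 8945533 to 8946244) had 2.08, 2.89 and 2.08 FPKM in total, 1.08, 2.26 and 1.33 in monosome and 3.31, 7.19 and 5.84 in polysome RNA and was past 2-fold on the ribosomes of *ppp-1(wrm10)*, but not in its total RNA. Of the defensin-like genes, *abf-6* had 3.73, 2.55 and 2.14 FPKM in total, 2.79, 2.35 and 2.18 in monosome and 7.58, 5.76 and 4.26 in polysome RNA. *abf-5*, its neighbour on chromosome X, had 2.44, 1.83 and 1.89 FPKM in total, 2.78, 2.54 and 1.25 in monosome and 4.38, 2.83 and 3.16 in polysome RNA, with monosomes of *ppp-1(wrm15)* past 2-fold lower. *abf-1* had 1.65, 1.34 and 2.92 FPKM in total, 1.54, 2.27 and 2.70 in monosome and 0.545, 0.368 and 0.794 in polysome RNA and was above WT in every fraction of *ppp-1(wrm15)*. The thaumatin-like genes *thn-2* and *thn-1*, neighbours on chromosome IV, stayed within 2-fold. *thn-2* had 27.6, 34.2 and 28.6 FPKM in total, 20.2, 20.3 and 18.4 in monosome and 60.8, 61.4 and 56.3 in polysome RNA, and *thn-1* had 1.59, 1.85 and 2.33 FPKM in total, 1.15, 0.807 and 1.09 in monosome and 4.21, 3.92 and 5.25 in polysome RNA.

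Of the 57 genes, 15 were above WT by any amount in all 3 fractions with the *wrm10* allele, and 14 with *wrm15*, against 19.6% and 23% of all loci.

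In WT animals, the members were more abundant in polysomes than in total RNA. The median of log2(polysome/total) was 0.82 over the 57 genes and 0.10 over all loci. Of the 57, 20 (35.1%) were higher by 2-fold or more in polysomes, against 6.81% of all loci, and 2 were lower (*abf-1*, and *fipr-19* with its value of 0), against 18.2%. With the median of all loci set to 0, these counts were 13 and 3, against 3.88% and 20.2%. Against monosomes, the median was 0.77 (all loci, 0.01), 21 genes were higher (10.9%) and 4 lower (*abf-1*, *ilys-4*, *fipr-16* and *fipr-19*; 11.8%). Because each library is scaled to its own total, these ratios say how the members stood relative to all other RNA of a fraction.

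The abundant lysozymes and saposin-like genes shared this position, apart from *spp-17* (0.10 against total and 1.08 against monosome RNA). In total, monosome and polysome RNA of WT animals in this order, *ilys-5* had 1235, 822 and 2364 FPKM, *lys-8* 150.5, 149 and 317 FPKM and *spp-3* 265, 223 and 588 FPKM. All 5 *lys* genes with a mean of at least 50 FPKM lay between 0.74 and 1.08 against total RNA. The largest log2 ratios to total RNA among the 57 were those of *cnc-3* (1.60), *thn-1* (1.35), *fip-5* (1.29), *fipr-21* (1.27) and *lys-10* (1.27). Against monosomes, the largest without a value of 0 were *fipr-28* (2.34, with a WT monosome value below the 0.1 FPKM added), *thn-1* (1.79), *spp-23* (1.73), *ilys-2* (1.70) and *fipr-21* (1.65). *spp-23* (chromosome I, 1018843 to 1019157), a single-exon saposin-like gene beside *spp-17*, had 56.7, 50.9 and 59.4 FPKM in total, 37.7, 32.3 and 42.9 in monosome and 125, 97.6 and 137 in polysome RNA.

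Some members stood apart. *abf-1* was lower in WT polysomes than in total RNA (-1.44) and monosomes (-1.35). *ilys-4* (chromosome IV, 7895628 to 7897543), an invertebrate lysozyme gene that overlaps *atic-1* on the other strand, was highest in monosomes, with 3.24, 2.68 and 2.85 FPKM in total, 6.82, 8.01 and 7.52 in monosome and 2.91, 2.70 and 3.01 in polysome RNA. Its log2 ratio of polysomes to monosomes in WT was -1.20, and the same order held in both mutants. *fipr-16* was lower in WT polysomes than in monosomes (-1.05). *fip-2* was below its total level in polysomes (-0.38) but above its monosome level (0.54). The plot of polysome association shows these genes away from the upper right.

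**Figure D4:**
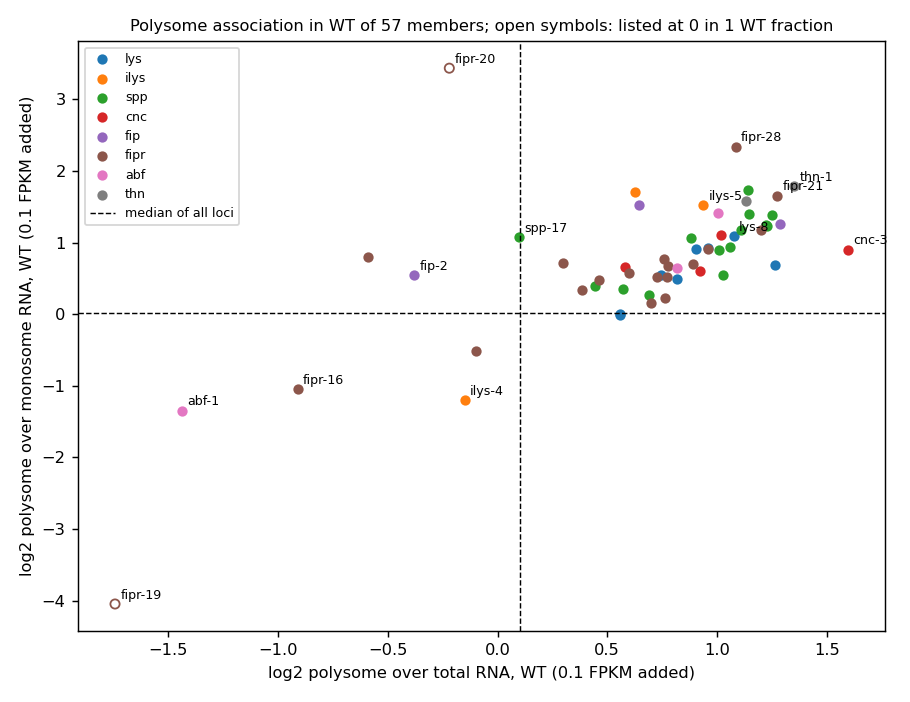
Log2 ratio of polysome to total RNA (x axis) and of polysome to monosome RNA (y axis) in WT animals (0.1 FPKM added) for the 57 members with a mean of at least 1 FPKM, coloured by prefix; dashed lines are the medians of all loci (0.10 and 0.01), and open symbols mark genes listed at 0 in 1 WT fraction. Most members lie to the upper right of both medians, and *abf-1*, *fipr-16* and *ilys-4* lie below.

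The position in polysomes also stood above that of other genes of the same coding length. For coding sequences of under 100 codons, the median ratio to total RNA was 0.62 for 24 members and 0.22 for 605 loci. From 100 to 150 codons it was 1.01 for 19 members and 0.47 for 942 loci, and from 150 to 300 codons 0.93 for 12 members and 0.34 for 2737 loci. The position was not particular to these families. The median ratio was 0.74 for intestinal, 0.74 for epidermal and 0.99 for coelomocyte markers, but 0.18 for neuronal and -1.08 for oocyte markers. It was 1.17 for the *nlp* genes and 0.98 for the other pathogen response effectors named below. Over all loci of at least 100 FPKM it was 0.49.

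The ratio of polysome to total RNA, a measure of translational efficiency, differed by 2-fold between a mutant and WT for few members. In *ppp-1(wrm10)*, 2 of the 57 genes were higher by 2-fold (*fipr-19* and *fipr-20*; background 1.16%) and 0 lower (1.16%). In *ppp-1(wrm15)*, 4 were higher (*fipr-16*, *fipr-19*, *fipr-20* and *fipr-28*; 1.19%) and 0 lower (1.38%). The change for *fipr-16* was 3.19 in *ppp-1(wrm15)* and -0.03 in *ppp-1(wrm10)*, and that for *fipr-28* 1.23 and 0.02, so these did not share a size between the alleles. All of these genes had a mean under 5 FPKM and a WT mean under 1 FPKM, and the change of *fipr-19* rests on its WT value of 0. Among the 52 genes with a WT mean of at least 1 FPKM, 0 were higher and 0 lower by 2-fold in either allele, against 1.21% and 0.995% of such loci with the *wrm10* allele, and 1.17% and 1.08% with *wrm15*. On the same log2 scale, the abundant lysozyme gene *lys-2* had -0.06 and -0.01, *lys-8* -0.17 and -0.09, and *ilys-5* -0.16 and 0.04 in the *wrm10* and *wrm15* alleles.

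The regulators of these families stayed within 2-fold of WT in both mutants, apart from *pmk-1* and *pmk-2* in *ppp-1(wrm15)*. Of 26 genes of p38 MAPK and other immune signalling, 0 passed 2-fold in any fraction of *ppp-1(wrm10)*, where 5.71% of all loci were higher and 0.737% lower in total RNA, 6.75% and 0.705% in monosome RNA, and 4.7% and 0.969% in polysome RNA. In *ppp-1(wrm15)* these 2 were lower in all 3 fractions, against 0.16% of all loci. *pmk-1*, the p38 kinase of intestinal immunity, had 22.6, 20.8 and 8.45 FPKM in total RNA, 23.9, 23.3 and 10.1 in monosome RNA and 23.3, 21.5 and 9.93 in polysome RNA. *pmk-2*, its paralog beside it in the same operon, had 15.2, 13.5 and 3.03 FPKM in total, 14.6, 15.7 and 3.73 in monosome and 2.40, 2.87 and 0.842 in polysome RNA. WT and *ppp-1(wrm10)* lay close together for both genes, and *ppp-1(wrm15)* lay far below. Of 8 genes of the DBL-1 pathway, 0 passed 2-fold in any mutant comparison, where the shares of all loci in *ppp-1(wrm15)* were 4.95% higher and 0.969% lower in total, 6.07% and 1.07% in monosome, and 4.33% and 1.08% in polysome RNA.

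Of 10 antimicrobial genes of the *nlp* family, 9 had a mean of at least 1 FPKM. Their median change was -0.01 and -0.30 in total RNA, 0.14 and -0.28 in monosome RNA, and 0.45 and 0.16 in polysome RNA. The abundant genes *nlp-24*, *nlp-27* and *nlp-28* were below WT in every fraction of both mutants. *nlp-33*, also abundant, was above WT except in monosomes of *ppp-1(wrm15)*. The epidermal peptide gene *nlp-34* had 3.91, 7.53 and 6.17 FPKM in total, 1.39, 4.81 and 4.77 in monosome and 8.96, 19.5 and 12.2 in polysome RNA and was higher by 2-fold in monosomes of both mutants (all loci, 6.75% and 6.07%) and in polysomes of *ppp-1(wrm10)* (4.7%). *nlp-30*, in the same epidermal cluster, had 1.02, 2.84 and 2.01 FPKM in total, 1.54, 2.94 and 2.04 in monosome and 2.46, 6.73 and 4.68 in polysome RNA, past 2-fold in *ppp-1(wrm10)* total and polysome RNA (all loci higher, 5.71% and 4.7%). *nlp-25* was lower by 2-fold in monosomes of both (all loci, 0.705% and 1.07%), with 1.60, 0.108 and 0.514 FPKM, where the *wrm10* value is near the 0.1 FPKM added. In polysome RNA it was above WT in both, with 1.45, 2.92 and 2.70 FPKM (changes of 0.96 and 0.85). In total RNA it had 0.996, 0.802 and 1.60 FPKM.

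Several effectors of the pathogen response outside the 8 families were lower in both mutants. Of 14 such genes with a mean of at least 1 FPKM, 0 were higher by 2-fold in any mutant comparison, and in total RNA 4 were lower with the *wrm10* allele (median change -0.44; 0.737% of all loci lower), and 2 with *wrm15* (-0.53; 0.969%). *irg-1*, an infection response gene, had 6.87, 2.87 and 2.98 FPKM in total, 4.30, 2.71 and 2.02 in monosome and 19.2, 7.70 and 6.999 in polysome RNA. *F55G11.2* had 5.42, 2.42 and 2.58 FPKM in total, 6.47, 2.58 and 2.28 in monosome and 11.5, 4.85 and 5.04 in polysome RNA. It was lower by 2-fold in all 6 comparisons. *dod-24*, *dod-22* and *dod-17* are genes downstream of DAF-16. *dod-24* had 13.4, 4.85 and 8.47 FPKM in total, 15.2, 5.88 and 8.18 in monosome and 24.6, 9.62 and 16.8 in polysome RNA. *dod-22* had 5.55, 2.25 and 2.83 FPKM in total, 8.28, 3.47 and 3.81 in monosome and 6.47, 3.18 and 2.74 in polysome RNA. *dod-17* had 11.96, 6.08 and 7.03 FPKM in total, 11.22, 5.22 and 5.41 in monosome and 27.4, 12.6 and 13.5 in polysome RNA. For each of them both mutants were below WT in each fraction.

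**Figure D5:**
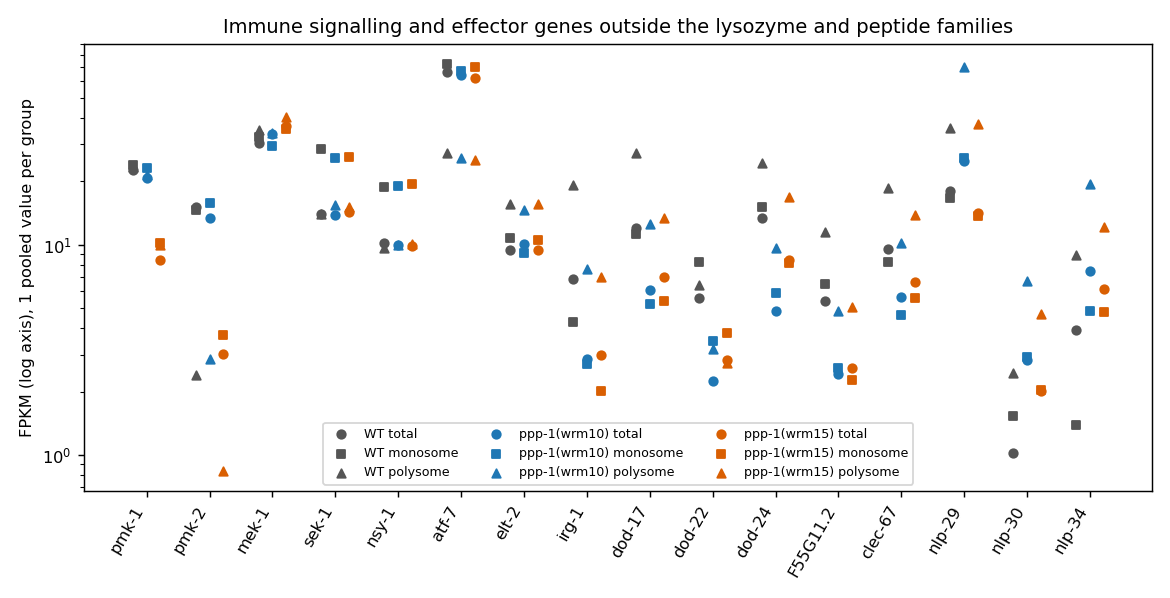
FPKM (log axis), 1 pooled value per group, of 16 immune signalling and effector genes outside the 8 families, picked after their values were seen; grey, blue and orange mark WT animals, the *wrm10* and the *wrm15* allele, and circles, squares and triangles mark total, monosome and polysome RNA. The orange values of *pmk-1* (8.45 to 10.1 FPKM) and *pmk-2* lie below the grey and blue ones, and from *irg-1* to *F55G11.2* both mutants lie below WT.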

How the data were processed

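Total lysate RNA and RNA of monosome and polysome fractions of 3 genotypes were rRNA-depleted and sequenced; the labels give 4 libraries for every one of the 9 groups. The submitters' processing notes and the study's methods name HISAT2 2.1.0, StringTie 1.3.4d and Cufflinks 2.2.1 (with Cuffmerge, Cuffquant and Cuffdiff) on WBcel235 and Ensembl 91. The values the authors deposited are FPKM, 1 per group and locus, normalized and pooled over libraries in their Cuffdiff run with settings that the sources used here do not give. The authors' table also holds their own fold changes, test statistics, p-values, q-values and calls for each of the 36 pairs of groups, none of which was used. It has no counts and 0 per-sample columns, so the depth and the error of each value are unknown.

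Members were found by gene name among loci with 1 name. Loci with a mean of at least 1 FPKM over the 9 groups were compared (12488 in all), on the scale log2(FPKM + 0.1), with Python 3.11.15, pandas 2.3.3 and numpy 2.4.6. Translational efficiency change is log2(polysome/total) in the mutant less that in WT. No replicate values exist, so no test was run. The calculation was tested on simulated data. The coordinates are from Ensembl 115 (WBcel235); 3 members (*thn-3*, *thn-7* and *thn-8*) were not matched. The genes to be named were the top genes of each prefix by mean FPKM, those past 2-fold (the 5 largest where more), known defence genes and the pathway lists' genes past 2-fold. The members, lists and rules were chosen with earlier results of these data known. Alternatives were another pseudocount, 2 other filters, centring on the median of all loci, adding loci with joined names, and, chosen after seeing the data, a limit on the WT mean in place of the mean over all groups.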

Additional observations from a re-analysis of the deposited data

Results flagged for a closer look

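The lysozyme genes *ilys-2* and *lys-10* moved in opposite directions in the 2 alleles in all 3 fractions, with a gap of 2-fold or more between the alleles each time. For *ilys-2*, the log2 change was 0.42 for the *wrm10* allele and -1.56 for the *wrm15* allele in total RNA, a difference of -1.99. In monosome RNA the difference was -1.20, and in polysome RNA -1.14. For *lys-10*, the change in total RNA was 1.01 and -0.70, a difference of -1.71, and the difference was -1.09 in monosome and -1.34 in polysome RNA. The rule that picked them was written after the values were seen, the difference was not tested, and the means over the 9 groups were 1.92 FPKM for *ilys-2* and 1.74 FPKM for *lys-10*.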

How the results depend on the processing

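No paired analysis was possible because the deposited values are pooled over the 4 libraries of each group; for the same reason no library could be left out. The counts of members past 2-fold (higher and lower together) rest on genes of low level. With a mean of at least 5 FPKM required, they fell to 0 in total (from 9), monosome (from 5) and polysome RNA (from 9) of *ppp-1(wrm10)*, to 1 (from 6), 3 (from 8) and 0 (from 6) in *ppp-1(wrm15)*, to 14 (from 22) and 15 (from 25) in WT polysomes against total and monosome RNA, and to 0 for both changes in translational efficiency (from 2 and 4). Of all loci with such a mean, 4.32% to 6.77% were higher and 0.378% to 0.723% lower in the 6 comparisons against WT. In WT polysomes 6.59% were higher and 18.6% lower against total RNA, and 10.1% and 10.1% against monosome RNA. For translational efficiency the shares were 0.835% and 0.801% with the *wrm10* allele, and 0.723% and 0.868% with *wrm15*. With 1 FPKM added in place of 0.1, the counts were 4, 3 and 5 in *ppp-1(wrm10)*, 3 in total and 4 in monosome RNA of *ppp-1(wrm15)*, 14 in WT polysomes against total RNA, and 2 for the translational efficiency of *ppp-1(wrm15)*. Of all loci, 3.23% to 5.3% were then higher and 0.4% to 0.577% lower in the 6 comparisons against WT. The shares were 4.2% and 15.8% in WT polysomes against total RNA, and 0.737% and 0.897% for that translational efficiency. With no filter, the counts were 10 and 15 in monosome and polysome RNA of *ppp-1(wrm10)*, 12 in polysome RNA of *ppp-1(wrm15)*, and 7 and 10 for the translational efficiency of the *wrm10* and *wrm15* alleles. Of all loci, 2.38% to 3.75% were then higher and 0.905% to 1.52% lower in the 6 comparisons against WT. For translational efficiency the shares were 2.04% and 1.78% with the *wrm10* allele, and 2.08% and 1.86% with *wrm15*. With a WT mean of at least 1 FPKM required, an alternative chosen after seeing the data, 52 members remained, and the counts were 4, 3 and 4 in total, monosome and polysome RNA of *ppp-1(wrm10)*, 2 in polysome RNA of *ppp-1(wrm15)*, and 0 for both changes in translational efficiency. Of all loci with such a WT mean, 3.81% to 5.98% were higher and 0.906% to 1.29% lower in the 6 comparisons against WT. Centring on the median of all loci gave 13 higher and 3 lower members in WT polysomes against total RNA, with 3.88% and 20.2% of all loci, against 20 and 2 uncentred. Adding loci with joined names moved no count by over 1.5 times. The 6 median changes of the members against WT stayed below 0 under these alternatives, except with no filter, where 5 of the 6 were 0. The 13 *fipr* genes below WT in *ppp-1(wrm15)* all pass the limit of 5 FPKM, and the *fipr* genes higher in the mutants do not.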

Other observations

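*pmk-3*, a kinase gene in the same operon as *pmk-1* and *pmk-2*, was looked at after the values of its neighbours were seen. It had 19.9, 16.7 and 5.96 FPKM in total RNA, 16.7, 15.5 and 9.06 in monosome RNA and 9.76, 9.22 and 6.81 in polysome RNA of WT animals and of the *wrm10* and *wrm15* alleles, in this order. In *ppp-1(wrm15)*, *pmk-1*, *pmk-2* and *pmk-3* had 37.3%, 20.0% and 30.0% of their WT level in total RNA and 42.5%, 35.1% and 69.8% in polysome RNA. In *ppp-1(wrm10)* they had 92.1%, 88.7% and 83.7% in total RNA. The difference between the alleles was not tested.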
